A study of Mus musculus with 3 samples.

Results

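The values below describe 10 genes of the Notch pathway, out of 22535 genes counted in the libraries, in every cell type that marker genes could name. The genes were 4 receptors (Notch1, Notch2, Notch3 and Notch4), 4 ligands (Jag1, Jag2, Dll1 and Dll4) and 2 targets (Hes1 and Heyl). These genes were chosen by name, by a rule that used none of their measured values, but with earlier results of these data known. They were counted in single cells of the kidney cortex of WT1CreERT2; Rosa26-tdTfl/+ mice, on the BD Rhapsody platform, which tags each captured mRNA molecule with a unique molecular identifier (UMI). In these mice a tamoxifen-dependent Cre sits in the Wt1 locus, so that tamoxifen marks cells that express Wt1 then, together with their descendants, with the red fluorescent protein tdTomato (tdT). All groups carried both alleles and received tamoxifen. The Sham library came from sham-operated mice, and IRI24h-TDN and IRI24h-TD came from mice killed 24 h after the blood flow to both kidneys had been stopped and restored, a severe ischemia-reperfusion injury (IRI), each from 4 kidneys. Sham and IRI24h-TDN held sorted tdT+ cells to which tdT- cells were added, 2 parts to 1, and IRI24h-TD held tdT+ cells alone. With 1 library in each group there was no replicate check, and each difference below is between libraries.

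Notch receptors sit on the cell surface and bind ligands on a neighbouring cell. Binding lets an ADAM protease and then gamma-secretase cut the receptor, and the freed intracellular part enters the nucleus, joins the DNA-binding protein RBPJ and turns on genes of the Hes and Hey families. In the kidney the pathway patterns the developing nephron, Notch3 is known from the contractile cells around vessels, and Dll4 and Notch4 are known from endothelium.

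On the mouse genome GRCm38, GENCODE M21 places the receptor genes Notch1 on chromosome 2 (26457903 to 26516663), Notch2 on chromosome 3 (98013527 to 98150361), and Notch3 (32120820 to 32166852) and Notch4 (34564268 to 34588503) on chromosome 17. The ligand genes Jag1 (137081456 to 137116644) and Dll4 (119325784 to 119335962) lie on chromosome 2, Jag2 on chromosome 12 (112907819 to 112929776) and Dll1 on chromosome 17 (15367354 to 15376872). The target Hes1 lies on chromosome 16 (30064384 to 30067796) and Heyl on chromosome 4 (123233556 to 123249875).

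RefSeq promoter sequences of GRCm38.p6 were matched for 8 of the 10 genes, in 9 windows of 250 bases before a transcription start, and Hes1 and Heyl were not matched. The sequences of Notch4 and Dll4 are shown because both genes had their highest level in endothelial-like cells. Capitals mark GGAA, the core of the sites that ETS factors bind, on either strand, so that a match on the other strand reads TTCC. Each is written 5′ to 3′ on the gene's own strand. The last bases of the Notch4 window fall past the start that GENCODE gives for the gene.

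Notch4 promoter (GRCm38.p6, chr17:34564045-34564294, plus strand): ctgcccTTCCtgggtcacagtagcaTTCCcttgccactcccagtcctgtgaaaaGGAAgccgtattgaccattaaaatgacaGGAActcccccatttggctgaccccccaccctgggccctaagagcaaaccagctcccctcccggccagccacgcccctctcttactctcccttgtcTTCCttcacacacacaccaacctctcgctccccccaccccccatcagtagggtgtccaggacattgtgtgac

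Dll4 promoter (GRCm38.p6, chr2:119325534-119325783, plus strand): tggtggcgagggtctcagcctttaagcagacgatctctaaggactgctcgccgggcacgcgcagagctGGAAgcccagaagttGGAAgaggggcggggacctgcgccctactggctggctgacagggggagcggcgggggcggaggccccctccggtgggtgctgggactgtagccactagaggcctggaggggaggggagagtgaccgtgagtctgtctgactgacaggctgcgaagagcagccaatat

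The Notch4 window held 5 matches to GGAA, and 18.0% of 32851 mouse promoter windows of that length held at least as many. The Dll4 window held 2, and 76.8% of windows held at least as many. Of the other genes whose highest level was in endothelial-like cells, Notch1 held 4 matches, Dll1 held 1 in each of its 2 windows, and Jag2, whose window was 87.2% G and C, held 0. The windows of Notch1 (chr2:26503823-26504072) and Jag2 (chr12:112929496-112929745) and a window of Dll1 (chr17:15375824-15376073) lie inside the spans that GENCODE gives for these genes. GGAA occurred in 93.45% of all windows, with a median of 3 matches. TGGGAA, the core of the RBPJ site, which contains GGAA, was searched first on both strands and lay in 0 of the 9 windows, against 21.6% of all. A match is a description of these letters and not a bound site.

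Of 30008 barcodes, 26760 held at least 200 genes and at most 50% mitochondrial UMIs and were kept: 8047 Sham cells, 9024 IRI24h-TDN cells and 9689 IRI24h-TD cells. The kept cells held a median of 7746 to 9529 UMIs per library, and each pair of libraries shared 82 to 96 kept barcode sequences. Clustering without any pathway gene gave 41 clusters, and marker lists named 13 classes of at least 50 cells, while 5 clusters with 812 cells stayed unnamed. Podocyte-like cells were 18309 of the kept cells and made up 54.1% of the Sham cells, 57.3% of the IRI24h-TDN cells and 90.6% of the IRI24h-TD cells, and parietal epithelial cell (PEC)-like cells were 1560. Fewer than 50 cells of a class in a library gave no comparison, and IRI24h-TD held only 7 endothelial-like, 7 mesangial and pericyte-like and 10 smooth muscle-like cells. The podocyte gene Nphs1 was found in 99.3% of podocyte-like cells and also in 19.4% to 47.4% of the cells of the other classes. How far this was RNA of podocytes in other barcodes, cells that shared a barcode or own expression was not tested. A low level of a gene in a class is therefore not read as expression.

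Levels are counts per 1000000 UMIs of the class (CPM), summed over its cells, with an exact Poisson 95% interval. To compare classes of different depth, each cell was also thinned to 2400 UMIs, and a gene was counted as detected in a class where at least 10% of the thinned cells held it. All intervals cover counting error only. Levels are compared between classes for a given gene and not between genes.

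**Figure D1:**
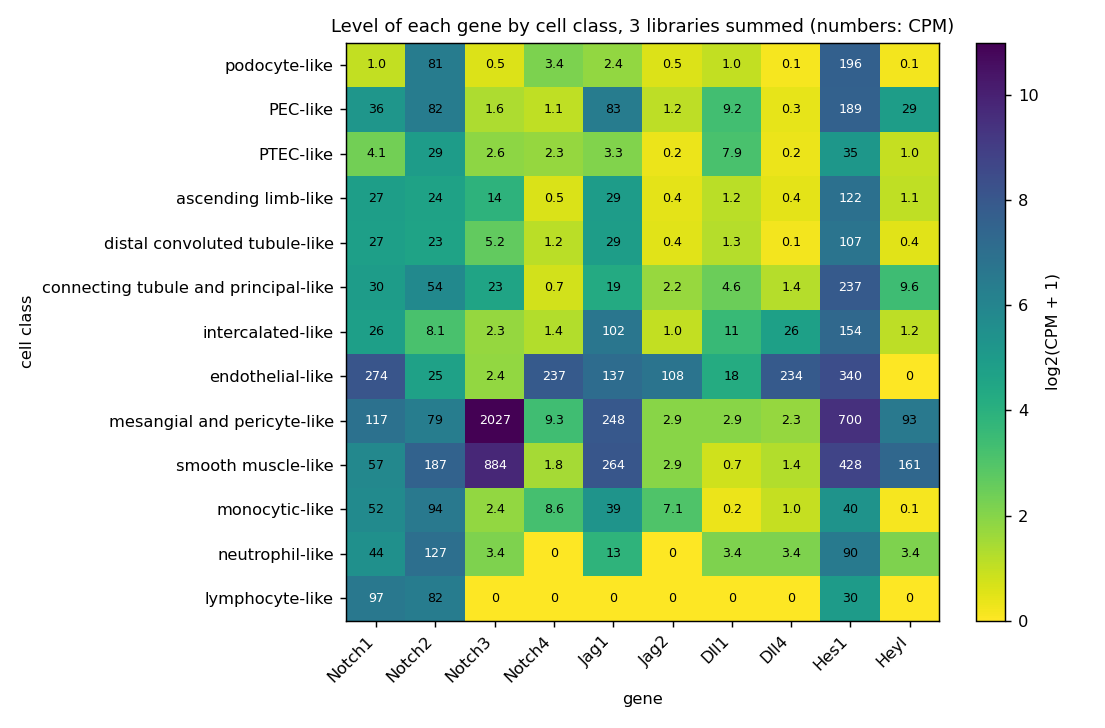
Level of each of the 10 genes (columns) in each marker-defined class (rows), all libraries summed, with colour for log2(CPM + 1) and the CPM printed in each square. Notch3 peaks in the mesangial and pericyte-like row at 2027 CPM, and Notch4, Dll4 and Jag2 peak in the endothelial-like row at 237, 234 and 108 CPM.

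Each receptor had its highest level in cells of the vessels. Notch1, a receptor widely used in development and in lymphocytes, stood at 274 CPM (interval 246 to 305) in endothelial-like cells and at 117 (101 to 134) in mesangial and pericyte-like cells. It was in 48.8% and 22.3% of their thinned cells. In Sham it was 311 CPM in endothelial-like cells and in IRI24h-TDN 230, both above the 146 and 103 CPM of mesangial and pericyte-like cells. Among classes with at least 50 cells in a library, smooth muscle-like cells followed at 62.4 and 51.5 CPM, and the libraries of the next classes in order, monocytic-like and PEC-like, overlapped with their neighbours. The 57 lymphocyte-like cells, too few in each library for this order, held 96.7 CPM (63.2 to 142). In podocyte-like cells Notch1 was at 1.04 CPM, with 0.959, 1.05 and 1.07 in Sham, IRI24h-TDN and IRI24h-TD.

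Notch2, the receptor needed for proximal nephron formation, was the most widely spread of the receptors, with detection in 8 of 13 classes. It was highest in smooth muscle-like cells, at 187 CPM (172 to 204), with 191 in Sham and 187 in IRI24h-TDN. Podocyte-like cells held 81.5 CPM and PEC-like cells 81.6, with detection in 17.4% and 19.4% of thinned cells at median depths of 9122 and 8112 UMIs. Intercalated-like cells, the class with the lowest level, held 8.06 CPM and 1.36%. Podocyte-like cells were alike in the 3 libraries, with 83.2, 80.7 and 81.2 CPM in Sham, IRI24h-TDN and IRI24h-TD. Because podocyte-like cells were so many, 75.5% of all Notch2 UMIs came from them. Notch2 was the only receptor detected in podocyte-like cells.

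Notch3, the receptor of mural cells, was concentrated in the cells around vessels. It stood at 2027 CPM (1961 to 2096) in mesangial and pericyte-like cells and at 884 (850 to 920) in smooth muscle-like cells, and these held 93.1% of its UMIs. Of thinned cells it was in 89.4% and 78.3%. The next class, connecting tubule and principal-like cells, held 22.7 CPM and 5.90% of thinned cells. The boundary between both mural classes was not sharp: a cluster of 254 cells led by Casq2, Notch3, Ndufa4l2 and Rergl was placed with mesangial and pericyte-like cells through its marker Rgs5, while its smooth muscle markers had the higher mean. That cluster held 2375 CPM of Notch3 in Sham and 2521 in IRI24h-TDN. The other cluster of the class, 61 cells led by Ren1, had 10 of 10 mesangial and pericyte markers detected. It held less Notch3 than smooth muscle-like cells in Sham and in IRI24h-TDN. The order of both mural classes for Notch3 therefore rests on the cluster of 254 cells and its name.

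Notch4, an endothelial receptor, stood at 237 CPM (211 to 266) in endothelial-like cells and in 40.3% of their thinned cells. No other class reached 10 CPM over all libraries. Podocyte-like cells gave 54.8% of its UMIs by their number, at 3.44 CPM and 0.840% of thinned cells. Their level was 4.30, 2.84 and 3.41 CPM in Sham, IRI24h-TDN and IRI24h-TD.

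Of the ligands, Jag1 was detected in the most classes. It stood at 264 CPM (246 to 284) in smooth muscle-like cells and 248 (225 to 273) in mesangial and pericyte-like cells, and the libraries of these classes overlapped. Endothelial-like cells held 137 CPM, intercalated-like cells 102 and PEC-like cells 82.6, and it was detected in all 5 classes. Podocyte-like cells held 2.43 CPM and 0.585% of thinned cells, so PEC-like cells, which line Bowman's capsule opposite the podocytes, held the ligand and podocyte-like cells did not reach detection.

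Jag2, the other Jagged ligand, was detected only in endothelial-like cells, at 108 CPM (90.1 to 127) and in 20.9% of thinned cells. Apart from them the classes of at least 50 cells held at most 7.14 CPM, in monocytic-like cells. Dll4, a Delta ligand of arterial and sprouting endothelium, likewise passed 10% only in endothelial-like cells, with 234 CPM (208 to 262) and 29.9%. Intercalated-like cells, the acid- and base-secreting cells of the collecting duct, came next with 25.8 CPM (22.1 to 29.8) and 8.16% of thinned cells, above every remaining class in both mixed libraries. The endothelial marker list summed to 20.7 CPM in intercalated-like cells of Sham and 16.1 in those of IRI24h-TDN, against 14063 and 14390 in endothelial-like cells. Dll1, the remaining Delta ligand, was detected in no class. It was highest in endothelial-like cells at 17.8 CPM, from 22 UMIs, and intercalated-like, PEC-like and PTEC-like cells held 10.9, 9.18 and 7.88 CPM. PTEC-like stands here for proximal tubular epithelial cells.

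**Figure D2:**
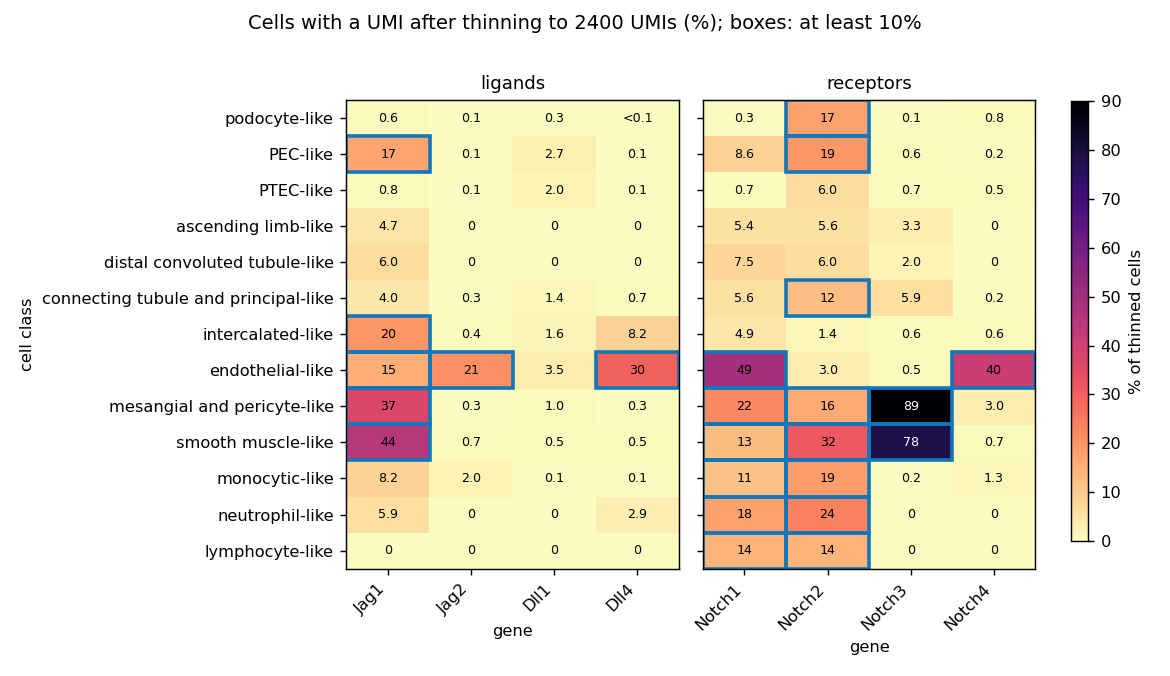
Percent of cells, thinned to 2400 UMIs, that held each ligand (left) and each receptor (right) in each marker-defined class, as colour and printed number, with boxes around squares of at least 10%. Jag1 passes 10% in 5 classes and Jag2 and Dll4 only in endothelial-like cells, while Notch2 passes 10% in 8 classes.

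These shares were used to list the classes that held a ligand and those that held a receptor. Contact between cells was not measured, since the cells had been separated. A pair was counted where the sending class had the ligand, and the receiving class the receptor, in at least 10% of thinned cells, and 119 of 2704 possible pairs met this. A pair is a count of detected genes and measures no signalling. Jag1 gave 85 pairs, Jag2 17, Dll4 17 and Dll1 0. As senders, endothelial-like cells took part in 51 pairs, and PEC-like, intercalated-like, mesangial and pericyte-like and smooth muscle-like cells in 17 each. As receivers, mesangial and pericyte-like and smooth muscle-like cells took part in 21 each, and endothelial-like, monocytic-like, neutrophil-like and lymphocyte-like cells in 14 each. Podocyte-like, PEC-like and connecting tubule and principal-like cells received in 7 each, all through Notch2. Podocyte-like cells sent none and intercalated-like cells received none. The neutrophil-like and lymphocyte-like classes held only 34 and 42 thinned cells.

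Some classes held a ligand and a receptor in the same cell. In PEC-like cells Jag1 and Notch2 were together in 3.95% of thinned cells (exact interval 2.99% to 5.11%), where the product of both shares is 3.31%. In mesangial and pericyte-like cells Jag1 and Notch3 were together in 36.9% (31.4% to 42.6%), and Notch3 was in 99.1% of cells with Jag1 and 83.6% of those without. The clusters of this class differed in Notch3, and their part in this was not tested. In endothelial-like cells Dll4 and Notch1 were together in 18.4% (13.3% to 24.5%), with a product of 14.6%.

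Both targets had their highest levels in mural cells, those that wrap vessels. Hes1, a repressor turned on by Notch and by other signals, stood at 700 CPM (661 to 741) in mesangial and pericyte-like cells and 428 in smooth muscle-like cells. It was detected in 10 of 13 classes and was the broadest of the 10 genes, with 340 CPM in endothelial-like, 237 in connecting tubule and principal-like, 196 in podocyte-like and 189 in PEC-like cells. PTEC-like cells held 34.8 CPM and monocytic-like cells 39.7. Heyl, a target repressor of vascular smooth muscle, was narrower, with 161 CPM (146 to 176) in smooth muscle-like cells, 93.4 in mesangial and pericyte-like cells and 28.6 (26.0 to 31.4) in PEC-like cells. Endothelial-like cells held 0 UMIs of Heyl (interval 0 to 2.98 CPM), although Notch1, Notch4 and 3 ligands were detected there.

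**Figure D3:**
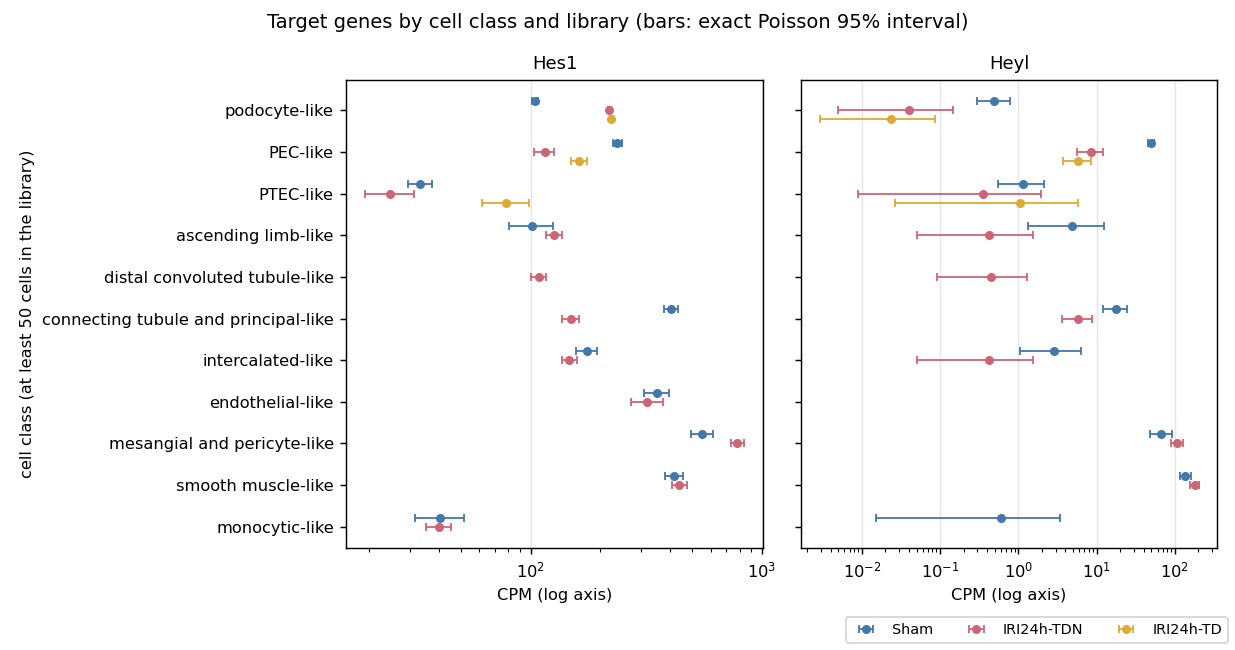
Hes1 and Heyl in each class with at least 50 cells in the library, in CPM on log axes with exact Poisson 95% intervals, coloured by library, with values of 0 not drawn. Hes1 in podocyte-like cells moves from 104 CPM in Sham to 219 and 223 in the IRI libraries, while Heyl in PEC-like cells moves from 49.5 to 8.47 and 5.74.

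The comparison of IRI24h-TDN with Sham asks what differed between injured and sham-operated kidneys at the same ratio of tdT+ to tdT- cells. The make-up by class still differed. PTEC-like cells were 1065 in Sham and 154 in IRI24h-TDN, and monocytic-like cells were 324 and 963. The part of this make-up in the differences below was not tested. A gene counted as past 2-fold where the CPM ratio was at least 2 either way and both libraries together held at least 20 UMIs, and ratios carry an exact conditional 95% interval. In 10 classes with at least 50 cells in both libraries, 68 combinations of gene and class were tested. Of these 7 were past 2-fold higher in IRI24h-TDN and 9 lower, together 23.5%, where 18.5% of all combinations of gene and class were past 2-fold.

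In podocyte-like cells 2 of 9 genes tested were past 2-fold, where 14.8% of all genes were. Hes1 was 104 CPM in Sham against 219 and 223 CPM in IRI24h-TDN and IRI24h-TD, so both IRI libraries were above Sham. Its ratio of IRI24h-TDN to Sham was 2.10 (2.03 to 2.18), and it was between 1.67 and 2.36 in all 6 podocyte-like clusters. Heyl went the other way at a very low level, from 18 UMIs (0.493 CPM) in Sham to 2 UMIs (0.0405 CPM) in IRI24h-TDN, and stood at 0.0239 CPM in IRI24h-TD. The interval of its ratio was 0.00925 to 0.343. The receptor Notch2 had a ratio of 0.971 (0.926 to 1.02) in the same cells. The PTEC marker list, a sign of tubular RNA, summed to 329 CPM in podocyte-like cells of Sham and to 8.45 and 6.85 CPM in the IRI libraries, and its part in these differences was not tested.

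In PEC-like cells 2 of 7 genes were past 2-fold, where 18.5% of all genes were, and both targets were lower. Hes1 was 237 CPM in Sham against 115 and 162 CPM in IRI24h-TDN and IRI24h-TD. It was 2.06-fold lower in IRI24h-TDN than in Sham, and it was lower in each of the 4 PEC-like clusters that could be compared, with ratios of 0.372 to 0.775. Heyl was 49.5, 8.47 and 5.74 CPM in Sham, IRI24h-TDN and IRI24h-TD, so both IRI libraries lay far below Sham. It was 5.85-fold lower in IRI24h-TDN (4.01 to 8.85), and past 2-fold lower in all 3 PEC-like clusters with enough UMIs, with ratios of 0.0923 to 0.440. The ligand Jag1 was 101, 57.2 and 68.0 CPM and the receptor Notch2 93.5, 60.7 and 76.1 CPM, both highest in Sham but neither past 2-fold. All 7 genes but Notch3, which had 13 and 11 UMIs, had ratios under 1. The PTEC marker list summed to 5679 CPM in PEC-like cells of Sham and to 1970 and 1748 in those of the IRI libraries, and the PEC list to 5734, 6695 and 8266. In the cycling PEC-like cluster Heyl was 13.7, 1.35 and 1.29 CPM, from 3, 1 and 1 UMIs.

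Cells of the PEC-like class that held a Wt1 UMI after thinning held more Notch2 and Hes1 than those without, and like levels of Jag1 and Heyl. These levels are CPM of the thinned UMIs, with equal weight for each cell, and are not on the scale of the class sums above. At full depth Wt1 was in 72.8% of PEC-like cells, and in 23.7% to 85.9% by cluster. Cells without a Wt1 UMI after thinning are therefore not cells that lack Wt1, and the part of cluster was not tested. Notch2 was at 121 CPM (105 to 140) in 649 cells with Wt1 and at 79.5 (67.0 to 93.7) in 744 cells without. Hes1 was at 300.5 (274 to 329) and 194 (174 to 216). Jag1 was at 87.3 and 91.3 CPM and Heyl at 28.9 and 31.4, with overlapping intervals. Nphs1 was in 47.4% of PEC-like cells, and the part of podocyte RNA in this was not tested.

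**Figure D4:**
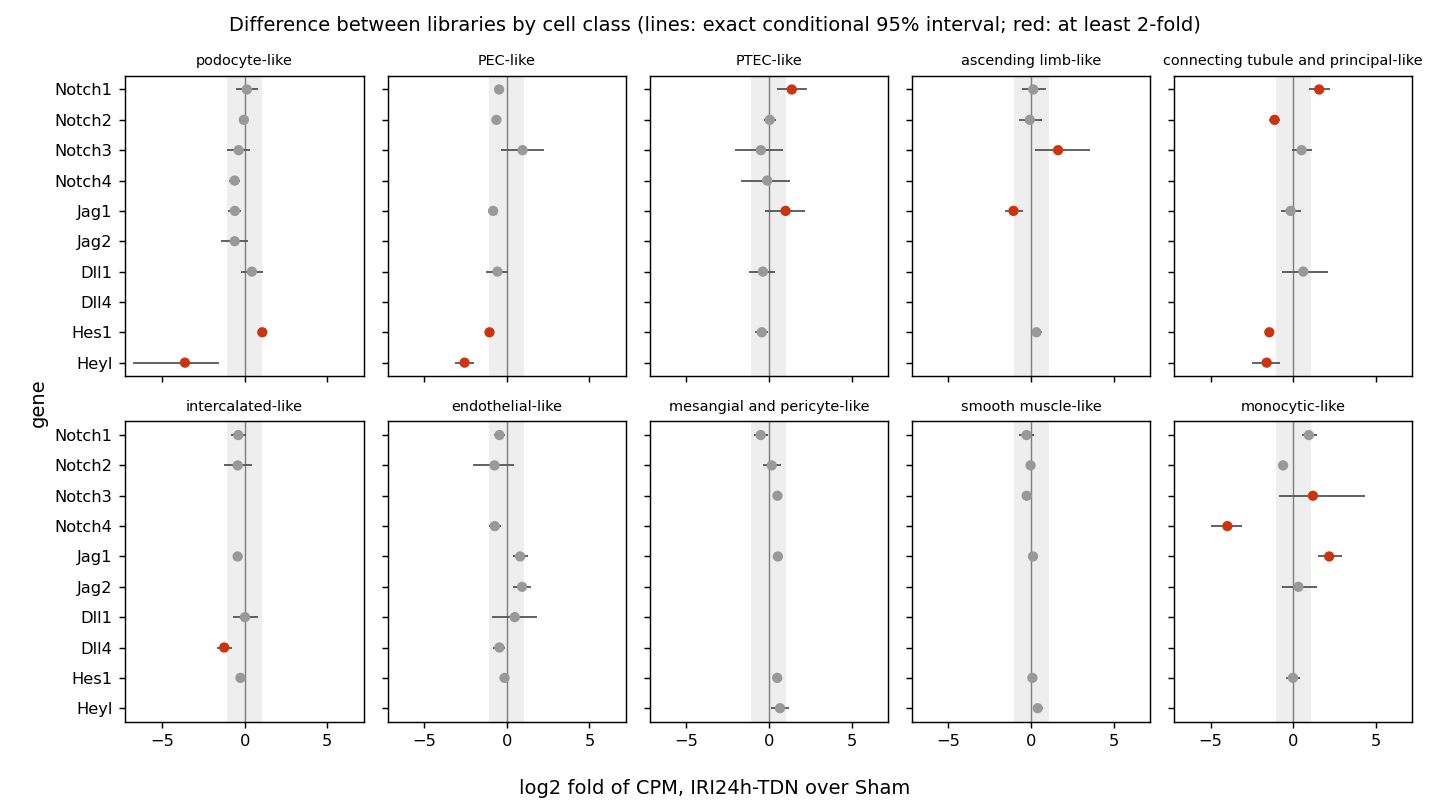
Log2 ratio of CPM of IRI24h-TDN over Sham for each gene with at least 20 UMIs, by class, with exact conditional 95% intervals as lines; red points are at least 2-fold and the grey band marks smaller differences. Connecting tubule and principal-like cells hold 4 red points, and endothelial-like, mesangial and pericyte-like and smooth muscle-like cells hold 0.

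Connecting tubule and principal-like cells, which reabsorb sodium and water late in the nephron, held the most such genes, with 4 of 7 genes past 2-fold where 17.0% of all genes were. Notch1 was 12.9 CPM in Sham and 38.1 in IRI24h-TDN, a ratio of 2.95 (1.92 to 4.72). Notch2 was 84.1 and 38.4 CPM, 2.19-fold lower. Both receptors lay on opposite sides in the same cells. Hes1 was 406 and 149 CPM, 2.73-fold lower, and Heyl 17.5 and 5.76 CPM, 3.05-fold lower. In both clusters of the class each of the 4 was past 2-fold in the same direction. The marker list of the class summed to 19900 CPM in Sham and 12423 in IRI24h-TDN.

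In intercalated-like cells 1 of 6 genes was past 2-fold, where 15.5% of all genes were. Dll4 was 43.2 CPM in Sham and 18.4 in IRI24h-TDN, 2.35-fold lower (1.73 to 3.19), with ratios of 0.442 and 0.415 in the clusters of the class. Jag1 was 124 and 93.0 CPM, and the intercalated marker list 11298 and 10252 CPM.

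In ascending limb-like cells 2 of 5 genes were past 2-fold, where 21.2% of all genes were. Jag1 was 51.1 CPM in Sham and 24.4 in IRI24h-TDN, 2.09-fold lower, but with TMM scaling the ratio was 0.505 and not past 2-fold. Notch3 was 4.86 and 15.1 CPM, from 4 and 71 UMIs, with an interval of the ratio of 1.16 to 11.7. The ascending limb list summed to 13308 and 4787 CPM in these cells and the PTEC list to 412 and 17.4, and their part was not tested.

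In PTEC-like cells 2 of 7 genes were past 2-fold, where 32.3% of all genes were. Notch1 was 2.85 CPM in Sham and 7.42 in IRI24h-TDN, from 25 and 21 UMIs, a ratio of 2.60 (1.39 to 4.85). Jag1 was 1.94 and 3.89 CPM, and the interval of its ratio, 0.849 to 4.54, contained 1. Both stayed far below their levels in other classes. The cells under this name also differed between the libraries: the PTEC list summed to 61414 CPM in Sham and to 10178 in IRI24h-TDN, and the PEC list to 101 and 1141. A cluster that held 418 of the 1065 Sham cells held 23 of the 154 IRI24h-TDN cells. Without 3 chosen clusters of PEC-like, PTEC-like and endothelial-like cells, each shallow or rich in podocyte markers, the ratio of Jag1 was 1.87. A shallow podocyte-like cluster of 794 cells, with a median of 1198 UMIs, was not left out.

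In monocytic-like cells 3 of 7 genes were past 2-fold, where 20.4% of all genes were. Jag1 was 10.3 CPM in 324 cells of Sham and 46.3 in 963 cells of IRI24h-TDN, a ratio of 4.49 (2.76 to 7.82). In the largest cluster of the class it was 13.4 and 60.7 CPM. Notch4 was 33.9 and 2.15 CPM, 15.8-fold lower, and this rested on the cluster of 117 cells led by Ccl22 and Xcr1, where it was 149 CPM in Sham and 9.99 in IRI24h-TDN. Without that cluster 10 UMIs of Notch4 were left and its ratio was 0.870. In the same cluster Notch2 was 254 and 98.2 CPM. Notch3 counted as past 2-fold with 2 and 18 UMIs, and its interval, 0.545 to 20.2, contained 1.

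Summed over the class, no gene was past 2-fold in the vascular classes, which held the highest levels. In endothelial-like cells it was 0 of 8 genes, where 15.9% of all genes were. The ligands Jag1 (106 and 186 CPM, ratio 1.75, 1.28 to 2.41) and Jag2 (79.3 and 150 CPM, ratio 1.90, 1.33 to 2.73) were higher in IRI24h-TDN, and the receptors Notch1 (311 and 230) and Notch4 (287 and 174) were lower. The podocyte marker list in these cells summed to 13748 CPM in Sham and 6898 in IRI24h-TDN, and its part was not tested. In mesangial and pericyte-like cells it was 0 of 6, where 14.9% of all genes were. Notch3 was 1587 and 2267 CPM there and Hes1 551 and 783, while the smooth muscle list in the class summed to 6642 and 18239 CPM. The class held 2 clusters, and their ratios are given side by side with no test of the difference. In the cluster of 61 cells led by Ren1, with 30 cells in Sham and 29 in IRI24h-TDN, Notch3 was at 696 CPM in IRI24h-TDN, a ratio of 7.33 to Sham (4.51 to 12.5), Heyl had a ratio of 5.36 (2.62 to 12.1), Notch2 of 3.04 (1.52 to 6.38) and Jag1 of 2.01 (0.967 to 4.31). In the cluster of 254 cells the ratios of Notch3, Heyl and Jag1 were 1.06, 1.07 and 1.17, and that of Notch2 was 0.821. In smooth muscle-like cells it was 0 of 6, where 11.5% of all genes were, with Notch3 at 985 and 818 CPM, Jag1 at 251 and 271 and Heyl at 135 and 178.

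Endothelial-like cells, in which the most ligands were detected, were not uniform. A subcluster of 19 cells with the arterial gene Gja5 at 784 CPM held Jag1 at 1112 CPM (915.2 to 1337), Dll4 at 844, Notch4 at 774 and Jag2 at 347. A subcluster of 31 cells with the glomerular endothelial gene Ehd3 at 5130 CPM held Dll4 at 443 CPM and Notch1 at 511, with 0 UMIs of Jag1. A subcluster of 41 cells with Plvap, a gene of fenestrated capillaries and veins, at 6544 CPM held Dll4 at only 39.0 CPM and Jag1 at 54.5. A subcluster of 33 cells led by Tspan8 held both Jag1 at 275 CPM and Jag2 at 291. The libraries were unevenly spread over them: 97 of 99 cells of a subcluster led by Btnl9 were from Sham, and 42 of 52 cells of another, led by Spp1, from IRI24h-TDN. In that order they held Jag2 at 61.9 and 135 CPM and Dll4 at 318 and 200 CPM. They also held Plvap, at 3568 and 2699 CPM, so Dll4 was not low in every subcluster with Plvap. The subclusters of 26 and 11 cells held podocyte markers at 33928 and 22171 CPM.

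**Figure D5:**
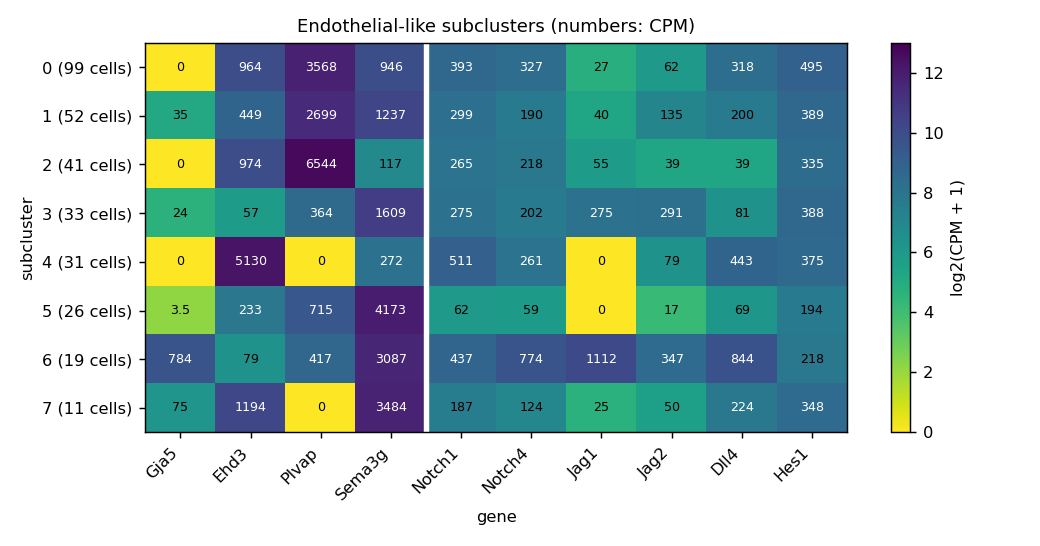
Level of the labelling genes Gja5, Ehd3, Plvap and Sema3g and of Notch1, Notch4, Jag1, Jag2, Dll4 and Hes1 (columns) in the endothelial-like subclusters (rows, with their cell numbers), with colour for log2(CPM + 1) and the CPM printed. Jag1 runs from 0 UMIs in the subcluster of 31 cells with high Ehd3 to 1112 CPM in the subcluster of 19 cells with Gja5.

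IRI24h-TD and IRI24h-TDN were both injured and differed in the sort, so this comparison asks how levels differed with the tdT+ sort. It shares the IRI24h-TDN library with the comparison above. Of 19 combinations tested in 3 classes, 2 were past 2-fold higher in IRI24h-TD and 1 lower, together 15.8%, where 2084 of all 34755 combinations of gene and class were. In podocyte-like cells it was 1 of 8 genes, where 3.72% of all genes were: Notch3 was 0.791 CPM in IRI24h-TDN and 0.0838 in IRI24h-TD, 9.44-fold lower, from 39 and 7 UMIs. Marker lists of other cells also differed there. In the same order the intercalated list summed to 6.37 and 0.431 CPM and the smooth muscle list to 15.3 and 5.70. The mesangial and pericyte list summed to 32.0 and 30.2 CPM, and the part of RNA from other cells was not tested. Hes1 had a ratio of 1.02 (0.996 to 1.04) and Notch2 of 1.01 (0.967 to 1.05) in these cells. In PEC-like cells it was 0 of 6 genes, where 3.89% of all genes were, and Heyl had a ratio of 0.678 (0.378 to 1.21). In PTEC-like cells it was 2 of 5 genes, where 11.6% of all genes were. Hes1 was 24.7 and 78.2 CPM, a ratio of 3.16 (2.25 to 4.44), and Jag1 3.89 and 13.6 CPM from 11 and 13 UMIs. Without the 3 clusters named above, the ratio of Jag1 was 1.79 from 17 UMIs and that of Hes1 2.44. The PTEC-like cells of IRI24h-TD were 91, with a PEC list of 1962 CPM and a podocyte list of 5415, against 1141 and 1339 in IRI24h-TDN, and the part of these was not tested.

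Another 42 genes of the pathway were read in the same way. Of 307 combinations of IRI24h-TDN with Sham, 13 were past 2-fold higher and 24 lower, together 12.1%, where 18.5% of all combinations were. Psenen, a subunit of gamma-secretase, was past 2-fold lower in all 10 classes, with ratios of 0.239 to 0.390, for example 51.3 and 12.95 CPM in podocyte-like cells. Adam10, the protease that makes the cut before gamma-secretase, was past 2-fold higher in 4 classes, with the highest ratio of 3.51 in monocytic-like cells. In PEC-like cells 5 of 33 were past 2-fold (18.5% over all genes), all lower: Psenen, the ubiquitin ligases Mib2 and Neurl3, and the targets Hey1 (3.56 and 1.17 CPM) and Hey2 (7.13 and 2.04 CPM). Hey1 and Hey2 rested on 4 and 7 UMIs in IRI24h-TDN, and the target Hes6 had a ratio of 1.22 (0.952 to 1.54) in the same cells. In podocyte-like cells 2 of 37 were past 2-fold (14.8% over all genes), Psenen lower and Dlk2, a Delta-like protein, higher (1.34 and 4.78 CPM). Between IRI24h-TD and IRI24h-TDN it was 3 of 96, or 3.12%, against the 2084 of 34755 over all genes. Among them was Neurl3 in podocyte-like cells, lower in IRI24h-TD (0.0957 CPM) than in IRI24h-TDN (0.872 CPM).

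By role, the highest levels of these genes were also uneven. Among those that ready the ligand, Mib1 was highest in podocyte-like cells (213 CPM) and Neurl3 in lymphocyte-like cells (398 CPM). The proteases Adam10 (315 CPM) and Adam17 (213 CPM) and the nuclear partner Rbpj (198 CPM) were highest in monocytic-like cells, as was Lfng (191 CPM), which adds sugars to the receptors. Dtx3 (263 CPM), of the Deltex family, was highest in mesangial and pericyte-like cells. Numb (123 CPM), which marks the receptor for removal, and the Delta-like Dlk1 (11.3 CPM) were highest in endothelial-like cells. Dlk1 had only 15 UMIs in all and was in 0.498% of thinned endothelial-like cells. The target Hey2 was highest in smooth muscle-like cells (129 CPM) and Hes6 in the 57 lymphocyte-like cells (40.9 CPM). The interval of Hes6 there, 20.4 to 73.2, contained its 29.3 CPM in PEC-like cells. Podocyte-like cells held the highest level of Poglut1 (60.6 CPM), a glycosyltransferase of the receptors, and of Dlk2 (4.35 CPM).

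Across 24 groups of class and library with at least 50 cells, the genes most like each of the 10 were found by Pearson's r of log2(CPM + 1). These are descriptions over groups that share libraries. Notch1 was most like Elk3 (r = 0.955), Ifitm3 and Sh2d3c, and Notch2 like Ptprs (0.802), Bcl2 and Actb. Notch3 was most like Rergl (0.956), Hrc and 9230112J17Rik, and Notch4 like Cd300lg (0.937), 3110099E03Rik and Fam167b. Among the ligands, Jag1 was most like Gem (0.875), Notch1 (0.868) and 2900026A02Rik, Jag2 like Fam167b (0.946), Icam2 and Eng, Dll1 like Bace2 (0.828), Efna1 and Zfp820, and Dll4 like Rflna (0.945), Adgrf5 and Clec1b. Hes1 was most like Copz2 (0.924), Zfp532 and Armcx2, and Heyl like Lmod1 (0.949), Myl9 and Gdf11. Within the 10, Jag1 with Notch1, Notch4 with Jag2 (0.840) and Notch3 with Heyl (0.813) had the highest r.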

How the data were processed

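The authors deposited UMI counts without normalization, 1 table of genes by cells for each of the 3 libraries. The submitters' processing notes name CASAVA 1.8, UMI-tools, Seurat and the mm10 build, and the aligner and annotation are not given in the sources used here. The deposited tables held 69980443 (Sham), 92355554 (IRI24h-TDN) and 93470709 (IRI24h-TD) UMIs. Barcodes with at least 200 genes and at most 50% mitochondrial UMIs were kept.

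Counts were scaled to 10000 per cell and log-transformed. From 2000 variable genes, without the pathway genes, 30 principal components were corrected between libraries by a script that follows the Harmony method (theta 2) and clustered by the Leiden method on 15 neighbours at resolution 1. A cluster took the name of the marker list with the highest mean log2 fold over the other cells, or of another list with more genes among its 10 leading genes, if at least 3 markers and 50% of the list were each found in at least 25% of its cells. This rule was set after clusters had been seen. A name such as PEC-like therefore depends on these rebuilt classes and may differ from the study's. The study's methods say that multiplets were excluded after cell selection, and none were removed here.

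The 10 genes, the 42 others and the marker lists were chosen with earlier results of these data known. UMIs were summed per class and library and divided by the class total (CPM). Intervals are exact Poisson for levels, exact Clopper-Pearson for shares and exact conditional binomial for ratios, all at 95%, and a value of 0 has a floor of 3 counts. No p-value was computed, since each group was 1 library. Cells were thinned to 2400 UMIs, and 111 of 312 endothelial-like, 694 podocyte-like and 167 PEC-like cells were too shallow. Named were all 10 genes, the 2 other pathway genes highest in any class for each role, those past 2-fold in podocyte-like or PEC-like cells, and the 3 genes most like each of the 10 among those with at least 20 CPM in a group. Psenen and Adam10 in other classes, and the subclusters' leading genes, were named after their values were seen. A gene that the rule names is not reported here. Motifs were searched in RefSeq promoters, GGAA after TGGGAA had given no match. Scripts were tested on simulated data. Tools were Python 3.11.15, numpy 2.4.6, scipy 1.17.1, pandas 2.3.3, scikit-learn 1.9.0, leidenalg 0.10.2, igraph 0.11.9, matplotlib 3.10.9, R 4.3.3 and, for TMM scaling as an alternative, edgeR 4.0.16.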

Additional observations from a re-analysis of the deposited data

Results flagged for a closer look

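A pair of genes differed between Sham and IRI24h-TDN in opposite directions in different classes, and the difference between classes was not tested, since each group was 1 library. Hes1 had a ratio of IRI24h-TDN to Sham of 2.10 in podocyte-like cells, 0.485 in PEC-like cells and 0.366 in connecting tubule and principal-like cells. Jag1 had a ratio of 4.49 in monocytic-like cells and 0.478 in ascending limb-like cells.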

How the results depend on the processing

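No paired analysis was possible because each group was 1 library. The count of 36 combinations of gene and class with detection was 20 when detection asked for 20% of cells and otherwise 25 to 53. The 119 sender and receiver pairs became 312 without thinning, 275 at 5% of cells, 28 at 20% and 2 in IRI24h-TD on its own, where few classes had enough cells, and were otherwise 84 to 152. The 16 gene and class combinations past 2-fold between IRI24h-TDN and Sham were 12 to 20 under all alternatives run. The 3 between IRI24h-TD and IRI24h-TDN were 1 when at least 50 UMIs were asked and otherwise 2 to 4. Over 7 other ways of filtering and clustering the cells, each of these 19 ratios kept its direction wherever it could be tested. Hes1 in PEC-like cells stayed past 2-fold in 6 of the 7 (ratios 0.390 to 0.508), and in PTEC-like cells between IRI24h-TDN and Sham Notch1 in 5 (1.91 to 2.76) and Jag1 in 3 (1.73 to 2.76). With TMM scaling, which moved all genes by over 0.1 on the log2 scale only in PTEC-like (0.12) and monocytic-like cells (0.17), Jag1 in PTEC-like cells (1.85) and in ascending limb-like cells (0.505) were no longer past 2-fold. Among alternatives chosen after seeing the data, leaving out 3 clusters of 307 cells gave 15 and 2, and leaving out the Xcr1 cluster gave 14 and 3, with the same 36 and 119. Of 70 levels of single genes under the alternatives, 57 moved by less than their interval, and the ratios to the reported level were 0.827 to 1.20. Few UMIs were behind Dll1, which had 22 in the class with its highest level, and Heyl in podocyte-like cells, with 18 and 2 UMIs.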
